A study of Mus musculus with 4 samples.

Results

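The genes described here are 49 G2/M phase genes, whose transcripts peak as a cell passes from the end of DNA replication through mitosis. They were taken by symbol from a list used to place single cells in the cell cycle, and no measured value was used to pick single genes. Earlier results of these data were known when the list was chosen. Each of the 49 symbols was found once among the 32285 genes of the deposited count matrix, and all 49 passed the filter on low counts in every comparison below. The samples were mouse alveolospheres, 3-dimensional co-cultures of alveolar type 2 (AT2) cells, the surfactant-producing progenitors of the alveolus, with PDGFRα-positive lung fibroblasts. The 2 control libraries are labelled wildtype, and the 2 knockdown libraries hold wildtype AT2 cells with a YAP/TAZ KD specific to PDGFRa cells. All 4 libraries received doxycycline at 3 µg/ml, dissolved in DMSO, from day 7 to collection on day 14. The labels call the libraries biological replicates without naming separate animals or cultures, so the p-values below reflect how far these particular libraries differ, and that spread may be technical.

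Entry into mitosis is driven by the kinase CDK1 bound to B-type cyclins. Spindle motors, kinetochore proteins and the chromosomal passenger complex then attach and align the chromosomes, and the anaphase-promoting complex ends mitosis by marking cyclin B and securin for destruction. Most genes of this program are held silent in resting cells by the DREAM complex and switched on in G2 by the MuvB core with B-MYB and FOXM1, at promoter elements called CHR. In the adult lung AT2 cells and fibroblasts divide rarely at rest and re-enter the cycle in culture and after injury. YAP and TAZ (genes Yap1 and Wwtr1) are co-activators of TEAD factors whose known targets include cell cycle genes.

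Promoters of some members are shown here because their letters are those of the CHR and CCAAT elements through which this program is known to be controlled. RefSeq promoters (250 bases before to 50 after the gene start, GRCm38.p6) were matched for 43 of 49 members. The CHR letters TTTGAA, read on both strands, were in 30 of these 43 (69.8%), against 20.2% of the 27025 genes with a promoter in the table. The CHR variant TTTAAA was in 12 (27.9%, against 14.9% of all genes), and CCAAT, the box bound by NF-Y, was in 35 (81.4%, against 41.1%). The letters TTTAAA read the same on both strands, and CCAAT and TTTGAA can share a base at their ends. A match is a description of letters and not a site in use. Capitals mark TTTGAA or TTCAAA and CCAAT or ATTGG, each sequence runs 5′ to 3′ on the gene's strand, and positions count from the RefSeq start.
Cdk1, bases -100 to -1, chr10:69352913-69353012, minus strand: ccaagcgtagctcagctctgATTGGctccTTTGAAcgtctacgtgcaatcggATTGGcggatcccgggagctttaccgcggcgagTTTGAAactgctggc
Cdc20, bases -100 to -1, chr4:118437344-118437443, minus strand: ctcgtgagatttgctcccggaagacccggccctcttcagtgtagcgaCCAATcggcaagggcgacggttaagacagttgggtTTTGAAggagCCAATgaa
Top2a, bases -100 to -1, chr11:99024190-99024289, minus strand: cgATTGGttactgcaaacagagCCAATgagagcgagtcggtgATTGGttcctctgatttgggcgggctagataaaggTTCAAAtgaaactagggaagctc
Kif11, bases -100 to -1, chr19:37376282-37376381, plus strand: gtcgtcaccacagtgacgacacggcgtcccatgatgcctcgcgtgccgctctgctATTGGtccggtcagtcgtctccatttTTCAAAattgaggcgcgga
Cenpf, bases -15 to 15, chr1:189688072-189688101, minus strand: gcggcggcggcgggcagTTTGAAtcgctcg
Hmmr, bases -15 to 15, chr11:40733423-40733452, minus strand: ctgagggggaaagttgaggtaaaTTTGAAt
Ccnb2, bases -15 to 15, chr9:70421540-70421569, minus strand: gtgcgtcagcggcgcggtaTTTGAAtcgcg
Kif23, bases -15 to 15, chr9:61946785-61946814, minus strand: ggccgctgATTGGcctgTTTGAAatgcgcc

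In the Cdk1 promoter the first TTTGAA starts at base -71, and in the Cdc20 promoter at base -18. In the Top2a and Kif11 promoters the reverse letters start at bases -23 and -19. Cdk1 and Top2a both hold these letters close to their start, and their values in the knockdown are given below.

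Counts of unique molecular identifiers (UMIs) were summed per library over the cells of the authors' deposited classes, with the classes named cycling kept apart from all others. The libraries held 15000 and 13883 control cells and 10545 and 6508 knockdown cells, with 44284602 to 71523447 UMIs per library. The 45936 cells carried 44852 distinct barcodes, of which 1073 occurred in more than 1 library. Cycling fibroblasts numbered 1100 and 1028 cells in the control libraries and 214 and 201 in the knockdown libraries, and cycling AT2 cells 238 and 205 against 472 and 164. Summed fibroblast markers were between 7241 and 10347 CPM (counts scaled to a common total per library) in the non-cycling fibroblast sums, and summed AT2 markers between 54299 and 73559 CPM in the cycling AT2 sums. Summed levels are plain CPM of all UMIs, and values of single genes are normalised CPM, scaled further by TMM factors. In non-cycling fibroblasts Yap1 read 62.2 and 66.6 CPM in control and 41.0 and 36.6 in knockdown libraries, a log2 fold change of -0.73 (adjusted p = 0.0082, edgeR quasi-likelihood). Wwtr1 read 244 and 237 against 194 and 174 CPM there and did not pass (log2 -0.39, adjusted p = 0.0981). In cycling fibroblasts Yap1 read 57.5 and 53.7 against 38.1 and 31.3 CPM (log2 -0.68, adjusted p = 0.0698). Wwtr1 read 213 and 194 against 178 and 126 CPM in these cells (log2 -0.42, adjusted p = 0.311, edgeR). In non-cycling epithelium neither passed, with Yap1 at 116 and 103 against 98.5 and 98.1 CPM and Wwtr1 at 328 and 282 against 268 and 224 CPM. Neither passed in cycling AT2 cells. There Wwtr1 read 227 and 218 against 168 and 131 CPM (log2 -0.56, adjusted p = 0.24, edgeR) and Yap1 81.9 and 68.3 against 71.2 and 67.3 CPM (log2 -0.11).

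The label of the list holds in the deposited classes, with 1 exception. Summed over the members, cycling fibroblasts held 3804 and 4327 CPM in control and 4107 and 5335 in knockdown libraries, and non-cycling fibroblasts 666 and 683 against 486 and 512. Cycling AT2 cells held 4862 and 5316 against 4908 and 6050, and non-cycling epithelial classes 749 and 740 against 724 and 776. The authors' clusters were built on expression that includes these genes, so the gap between cycling and other classes is a description with no test. In the control libraries the ratio of cycling to non-cycling level had a median over members of 8.75 in fibroblasts (1.85 to 18.2) and 10.9 in epithelial cells (0.501 to 36.9). The highest epithelial ratio was that of Kif11, the plus-end motor that pushes spindle poles apart. The exception was Psrc1, a microtubule-associated protein of the spindle, whose ratio in epithelial cells was 0.442 and 0.566 in the control and 0.636 and 0.657 in the knockdown libraries. Psrc1 was thus lower in cycling AT2 cells than in the other epithelial cells of all 4 libraries, and higher in cycling than in other fibroblasts (1.76 and 1.95 in control, 1.65 and 1.79 in knockdown libraries).

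**Figure D1:**
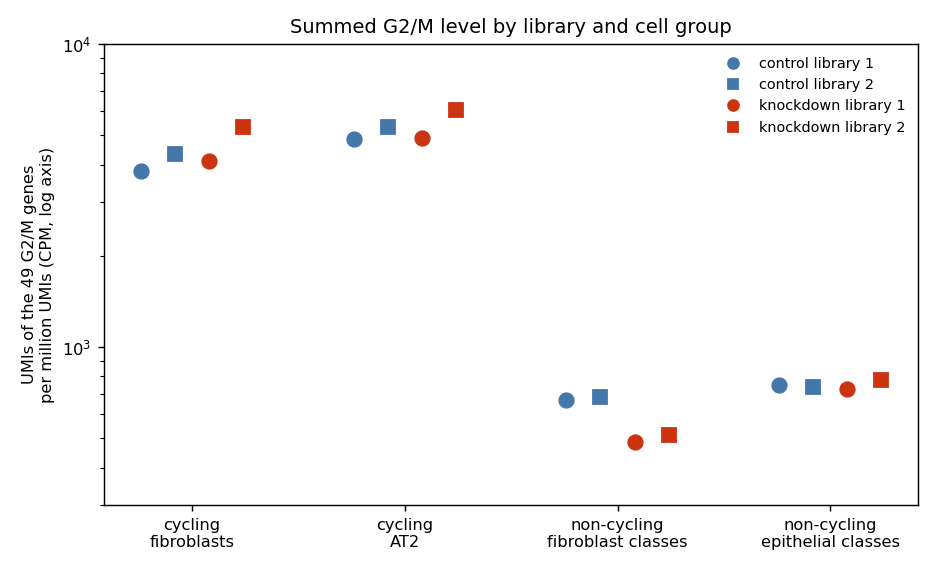
Summed level of the 49 G2/M genes, in plain CPM on a log axis, for each library (points; blue control, red knockdown; circles library 1, squares library 2) in 4 groups of cells. Knockdown points lie below both control points in the non-cycling fibroblast classes, and the groups overlap in the other 3.

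The first comparison asked whether G2/M transcripts differ in fibroblasts outside the cycling class when YAP/TAZ are knocked down. In non-cycling fibroblasts 24 of 49 members fell, 0 rose and 25 did not pass. Over all 17241 genes tested, 5.99% fell and 4.23% rose. The median log2 fold change of the members was -0.65, beside 0.01 over all genes, and 46 of the 49 values were below 0. Both knockdown libraries lay below both control libraries for 41 members, a pattern that 29.6% of all genes showed. At an unadjusted p under 0.05 there were 39 members, beside 4779 of the 17241 genes. Without knockdown library 2, 15 members fell. The members are given below by role, and no test compared the role groups.

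Among the 9 genes of the CDK1 engine and its switches 4 fell: the B cyclins Ccnb1 and Ccnb2, the phosphatase Cdc25c that activates CDK1, and the mitotic kinase Plk1. Ccnb1 read 9.24 and 9.54 CPM in control and 5.85 and 5.36 in knockdown libraries (log2 -0.74, SE 0.13, adjusted p = 0.0142, edgeR). For Ccnb2 the values were 12.1 and 12.8 against 8.44 and 8.34 CPM (log2 -0.57, SE 0.12, adjusted p = 0.025, edgeR). Control libraries were above knockdown libraries without overlap for both cyclins. Plk1 stood at 6.0 and 5.96 against 3.69 and 2.95 CPM (log2 -0.84, SE 0.16). Cdc25c had the lowest log2 value of all members, 1.60 and 1.84 against 0.561 and 0.658 CPM (log2 -1.50, SE 0.25), on 78 and 88 counts in the control and 21 and 21 in the knockdown libraries. The kinase itself did not follow its cyclins. Cdk1 read 12.5 and 16.3 against 12.4 and 13.6 CPM (log2 -0.15, SE 0.15, adjusted p = 0.55), and the groups overlapped. Its small binding subunits Cks1b (30.2 and 39.9 against 35.1 and 39.7 CPM) and Cks2 (18.3 and 18.4 against 15.9 and 17.4 CPM) also did not pass. Cks1b has a near-identical copy in the files, Cks1brt, which held 33 UMIs over all cells against 10397 for Cks1b, so its value is uncertain by what the counting gave to that copy. Gtse1, which restrains p53 in G2, and the ubiquitin ligase G2e3 had log2 values of -0.44 and -0.36 and did not pass.

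The chromosomal passenger complex corrects wrong attachments of chromosomes to the spindle, with Aurkb as its kinase and Birc5 (survivin) and Cdca8 (borealin) as its targeting subunits. Birc5 fell, from 12.3 and 14.3 CPM to 9.01 and 7.93 (log2 -0.65, SE 0.13, adjusted p = 0.0254, edgeR). Aurkb read 2.53 and 2.74 against 2.16 and 1.47 CPM (log2 -0.52, adjusted p = 0.18), and Cdca8 5.63 and 7.63 against 4.06 and 4.29 CPM (log2 -0.67, adjusted p = 0.0589). The groups did not overlap for any of the 3 genes.

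Centromere and kinetochore genes had the lowest median of the 7 role groups, at a log2 of -1.02. Cenpf, a large coiled-coil protein of the outer kinetochore, read 6.59 and 8.18 CPM in control and 2.73 and 2.57 in knockdown libraries (log2 -1.48, SE 0.17, adjusted p = 0.00337, edgeR). The kinetochore motor Cenpe read 6.22 and 7.24 against 2.49 and 2.73 CPM (log2 -1.37, SE 0.16, adjusted p = 0.00364). Ndc80, which binds the microtubule ends, stood at 3.65 and 3.68 against 1.60 and 1.60 CPM (log2 -1.19, SE 0.17). In each of these 3 the knockdown libraries agreed closely with one another and lay far below the controls. The NDC80 partner Nuf2 (3.08 and 4.08 against 2.22 and 1.69 CPM, log2 -0.86) and the checkpoint kinase Ttk (2.83 and 2.74 against 1.58 and 0.846 CPM, log2 -1.18) fell, with knockdown library 2 the lowest for both. The centromeric histone Cenpa (9.98 and 11.3 against 6.28 and 6.11 CPM, log2 -0.78) and its chaperone Hjurp (43.5 and 41.1 against 29.6 and 31.6 CPM, log2 -0.47) fell as well. Bub1, the checkpoint kinase, was the member of this group that did not pass (2.24 and 2.66 against 1.63 and 1.38 CPM, adjusted p = 0.0782).

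Of the 13 genes of the spindle and its motors 6 fell. Tpx2, which activates Aurora A on spindle microtubules, read 9.36 and 11.4 CPM in control and 5.18 and 4.26 in knockdown libraries (log2 -1.13, SE 0.16, adjusted p = 0.00719, edgeR). Kif2c, a motor that takes microtubules apart at centromeres, stood at 3.78 and 4.5 against 1.47 and 1.54 CPM (log2 -1.46, SE 0.19). Hmmr, which anchors the spindle, was at 4.56 and 5.44 against 2.03 and 2.13 CPM (log2 -1.26, SE 0.17). All 3 had control libraries more than 1.5 times above knockdown libraries, with no overlap. Dlgap5 (log2 -1.44), Ckap2l (-0.94) and Ckap2 (-0.70), which bind or stabilise spindle microtubules, also fell. The kinase that Tpx2 activates, Aurka, read 3.88 and 3.99 against 3.47 and 4.39 CPM (log2 -0.01, adjusted p = 0.985), with overlapping groups. Nusap1 (7.86 and 6.82 against 7.14 and 6.55 CPM) and the microtubule polymerase Ckap5 (55.3 and 54.8 against 55.9 and 55.3 CPM) overlapped too. Kif11 (6.16 and 6.55 against 4.62 and 2.79 CPM, adjusted p = 0.072), Tacc3 (8.89 and 8.55 against 6.15 and 6.83 CPM, adjusted p = 0.0804) and the centrosomal kinase Nek2 (log2 -0.65, adjusted p = 0.111) did not overlap between groups and did not pass.

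The 3 members tied to the anaphase-promoting complex did not pass, although their groups did not overlap and all 3 had an unadjusted p under 0.05. Cdc20, its mitotic activator, read 9.69 and 11.6 against 8.52 and 6.83 CPM (log2 -0.47, adjusted p = 0.104, edgeR). Its ubiquitin-conjugating enzyme Ube2c read 17.2 and 17.8 against 13.1 and 13.7 CPM (log2 -0.39, adjusted p = 0.0654), and Cdca3 had a log2 value of -0.64 (adjusted p = 0.0568). In cytokinesis 2 of 4 genes fell. Anln, the anillin of the contractile ring, stood at 12.9 and 16.2 against 7.46 and 7.62 CPM (log2 -0.95, SE 0.15, adjusted p = 0.00887), and the central spindle motor Kif23 at 5.61 and 6.13 against 3.63 and 3.10 CPM (log2 -0.80). Ect2, which activates RhoA at the cleavage site, read 7.78 and 6.23 against 4.73 and 2.98 CPM and just missed the threshold (log2 -0.85, adjusted p = 0.0545).

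Among the 9 genes of chromosomes and the nuclear envelope 4 fell. Top2a, the topoisomerase that untangles sister chromatids, had the lowest adjusted p of all members: 25.7 and 24.4 CPM in control and 11.8 and 10.4 in knockdown libraries (log2 -1.17, SE 0.12, adjusted p = 0.00212, edgeR). Mki67, the Ki-67 protein that coats mitotic chromosomes, read 11.8 and 12.8 against 5.59 and 3.95 CPM (log2 -1.36, SE 0.17, adjusted p = 0.00481). The condensin subunit Smc4 stood at 49.4 and 49.1 against 34.8 and 33.8 CPM (log2 -0.52, SE 0.10), and its partner Ncapd2 at 9.03 and 9.64 against 7.05 and 7.65 CPM (log2 -0.35, adjusted p = 0.126). Smc4 thus fell and Ncapd2 did not pass, and neither overlapped between groups. The phosphatase-targeting Cdca2 fell (log2 -0.80, adjusted p = 0.0395). Tmpo, the lamin partner LAP2, read 17.5 and 20.1 against 14.2 and 12.5 CPM (log2 -0.49, adjusted p = 0.0504). The chromatin protein Hmgb2 (44.0 and 47.1 against 40.5 and 48.3 CPM, log2 -0.04), the histone chaperone Anp32e (26.2 and 30.3 against 26.1 and 30.5 CPM, log2 0.00) and the lamin B receptor Lbr (30.2 and 31.6 against 28.3 and 29.9 CPM, log2 -0.09) did not pass.

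**Figure D2:**
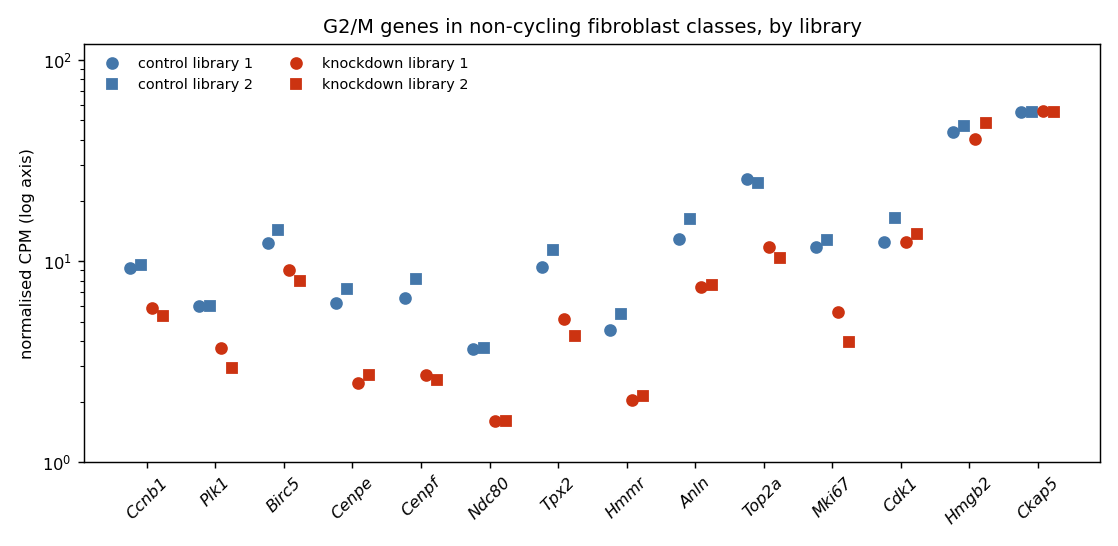
Normalised CPM on a log axis of 14 members in the non-cycling fibroblast classes, by library (blue control, red knockdown; circles library 1, squares library 2). Except for Cdk1, Hmgb2 and Ckap5, which overlap, the members shown fell and have both knockdown points below both control points.

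The knockdown difference across members went with how far a member was confined to cycling cells, measured in cells that were not knocked down. In the epithelial cells of the control libraries 26 members were more than 10-fold higher in cycling AT2 cells than in the other epithelial classes. In non-cycling fibroblasts 15 of these 26 fell, with a median log2 of -0.78, and 9 of the other 23 fell, with a median of -0.47. Across the 49 members Spearman's rho between the epithelial ratio (log2) and the fibroblast fold change was -0.571, a description over genes that share the same libraries. Aurka (15.5-fold), Nusap1 (17.0-fold) and Cdk1 (13.4-fold) departed from it, with ratios over 10 and log2 values of -0.01, -0.10 and -0.15. On the other side Hjurp and Ckap2 fell with epithelial ratios of 2.47 and 3.23. The members' fold change also went with the length of the gene's span (rho -0.438 over the members), as it did more weakly over 17227 genes (rho -0.238). With a correction for gene length 27 members fell, with a median log2 of -0.73, beside 882 of all genes that fell. Of the members that fell without this correction and had a promoter sequence, 15 of 19 held TTTGAA, and of those that did not pass 15 of 24.

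**Figure D3:**
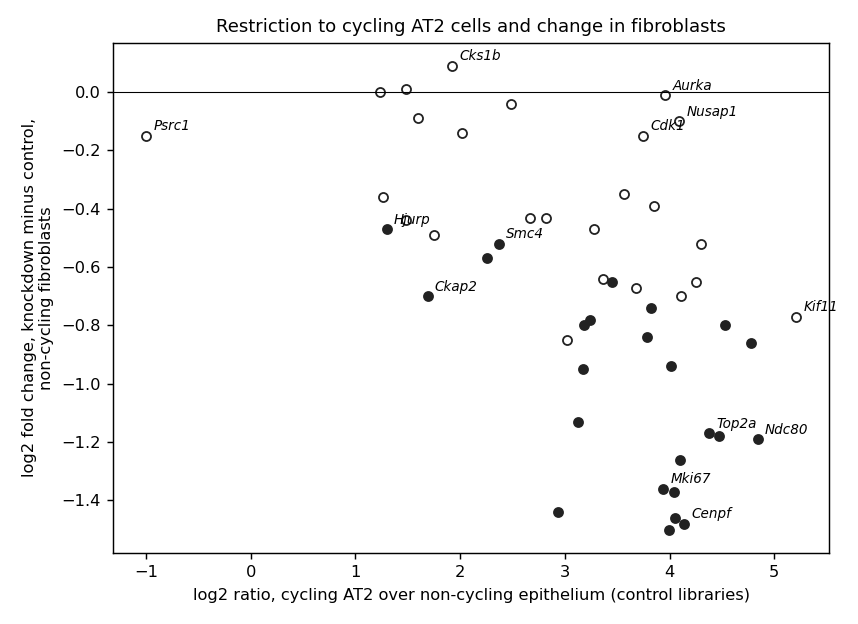
Each point is a G2/M gene: the x axis is the log2 ratio of its level in cycling AT2 cells to that in non-cycling epithelium of the control libraries, the y axis its log2 fold change (knockdown minus control) in non-cycling fibroblasts, with filled points for the 24 that fell. Members far to the right lie lower, with Aurka, Nusap1 and Cdk1 near 0 as exceptions, and Psrc1 alone has an epithelial ratio below 1.

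Within the non-cycling fibroblasts the summed level was also compared cluster by cluster. Of 18 deposited clusters 9 held at least 50 cells in every library, and in all 9 the summed member level was lower in both knockdown libraries than in both control libraries. These clusters come from the same 4 libraries and are not independent of one another. Cluster 10 of the class Inflammatory Fibroblasts-2 stood highest, at 1206 and 1270 CPM in control and 696 and 991 in knockdown libraries. It held 8.15% and 8.10% of the non-cycling fibroblasts in control and 2.09% and 1.75% in knockdown libraries, and 19.6% and 20.4% against 4.16% and 4.70% of their member UMIs. Without cluster 10, an alternative chosen after its values were seen, 15 of the 24 calls remained and the median log2 was -0.47. Narrower gaps were seen in cluster 3 of Inflammatory Fibroblasts-1 (591 and 655 against 493 and 580), cluster 1 of the EMT-like class (581 and 579 against 489 and 510) and cluster 26 of Myo1f+ Fibroblasts (669 and 735 against 613 and 639). Some fibroblast clusters were filled mainly by 1 group. The Wnt4+ Fibroblasts, with 1362 and 971 knockdown cells but 7 and 32 control cells, held 496 and 474 CPM against 360 and 564 in the controls, and these overlapped. Cluster 5 of the Fibroblasts class (1393 and 1149 knockdown, 7 and 76 control cells) held 442 and 487 CPM against 459 and 562 in the controls. Tgfbi+ Fibroblasts (931 and 404 knockdown, 5 and 38 control cells) held 486 and 492 against 448 and 544. The groups overlapped in both. In clusters 0, 13, 15, 18 and 29, also short of 50 cells in a library, both knockdown libraries lay below both control libraries. Knockdown cells were few: 66 and 23 in cluster 0, 48 and 5 in cluster 13, and 99 and 39 in cluster 15. Clusters 18 and 29 held 48 and 11, and 23 and 26. Knockdown library 2 gave only 7 member UMIs in cluster 13 and 14 in cluster 18. The gap in cluster 29 was narrow (620 and 676 against 618 and 532 CPM).

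**Figure D4:**
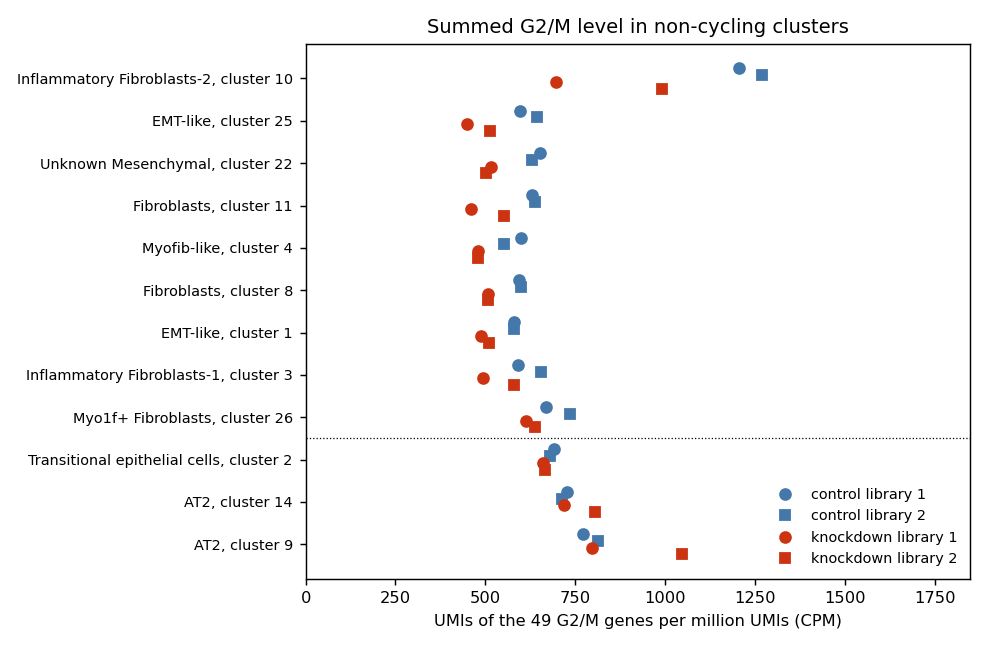
Summed level of the 49 G2/M genes in plain CPM for the non-cycling clusters with at least 50 cells in every library, without the mixed cluster 19 (blue control, red knockdown; circles library 1, squares library 2; dotted line between fibroblast clusters above and epithelial clusters below). In each of the 9 fibroblast clusters both knockdown points lie left of both control points, and cluster 10 stands apart at the top.

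Depth and other transcripts moved with the same comparison. Cells were deeper in the knockdown, with median UMIs per non-cycling fibroblast of 3649 and 3912.5 in control and 4610.5 and 5745 in knockdown libraries. After every cell was thinned to 2000 UMIs, 2.54% and 2.86% of control and 0.685% and 1.09% of knockdown non-cycling fibroblasts held at least 5 member UMIs (difference -1.81 points). The exact two-sided permutation p was 0.333, the smallest that 2 against 2 libraries can give. Without thinning the shares were 16% and 17.8% against 14.7% and 21.9%, and thinning left out 879 and 613 control and 251 and 43 knockdown cells with fewer UMIs. Myo1f+ Fibroblasts, 1 of these non-cycling classes and taken for reference, held 2.20% and 2.78% against 1.98% and 3.85%, on 4 and 4 against 2 and 3 cells. The exact 95% intervals of that class are wide (0.602% to 5.53% in control library 1, 0.8% to 10.8% in knockdown library 2). They hold the share of each library, so no cycling is read from these shares. On so few cells this reference cannot decide whether some of these cells cycle. Cluster 10 held 13.4% and 13.3% in control libraries, above those intervals, and 2.63% and 6.98% in knockdown libraries, on 4 and 6 cells. Among the thinned non-cycling fibroblasts with fewer than 5 member UMIs, the mean was 1.15 and 1.14 member UMIs per cell in control and 0.930 and 0.967 in knockdown libraries. Transcripts of other cell types were present in the fibroblast sums: the 9 AT2 markers summed to 871 and 943 CPM in control and 2448 and 1276 in knockdown libraries, and the 5 secretory airway markers to 1390 and 289 against 1.16 and 263. The 3 basal markers summed to 15.1 and 10.6 against 0.98 and 1.14 CPM, and the 3 mesothelial markers to 48.0 and 38.6 against 12.6 and 11.4. Immune and endothelial markers summed to at most 10.5 CPM in every library. The part of depth and of such transcripts in the member differences was not tested.

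The second comparison asked the same question inside the cycling fibroblast class. There 0 of 49 members passed by edgeR, DESeq2 or limma voom, beside 2.31% of the 12418 genes tested by edgeR. At an unadjusted p under 0.05 there were 8 members by edgeR, beside 1890 of the 12418 genes, and 42 of 49 log2 values were above 0, beside 6282 of all genes, with a median of 0.21 beside 0.01. In simulated counts for this comparison, edgeR recovered 81% of genes changed by 1 on the log2 scale and 100% of those changed by 2. The members' log2 values ran from -0.28 to 0.62, with SEs from 0.17 to 0.24.

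The 24 members that fell outside the class did not pass inside it. Groups overlapped for some of them and not for others, such as Top2a (312 and 353 against 381 and 484 CPM, log2 0.38). Cenpf read 120 and 151 CPM in control and 117 and 164 in knockdown libraries (log2 0.06), Cenpe 105 and 134 against 102 and 116 (log2 -0.13), and Ndc80 48.8 and 53.1 against 48.1 and 51.9 (log2 -0.03). Ccnb1 stood at 62.7 and 103 against 88.3 and 121 CPM, and Tpx2 at 102 and 117 against 96.3 and 130. In Cenpf, Cenpe, Ndc80, Ccnb1 and Tpx2 the control and knockdown libraries overlapped. The highest log2 values were those of Nusap1 (53.7 and 55.1 against 73.0 and 93.8 CPM, log2 0.62, adjusted p = 0.0825, edgeR) and Hmgb2 (147 and 188 against 203 and 311 CPM, log2 0.62, adjusted p = 0.153). Cdk1 read 91.8 and 133 against 141 and 190 CPM (log2 0.56, adjusted p = 0.191). For these 3 the knockdown libraries lay above the controls without overlap, and none passed. Without control library 2, 5 members rose, so this count rests on that library.

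**Figure D5:**
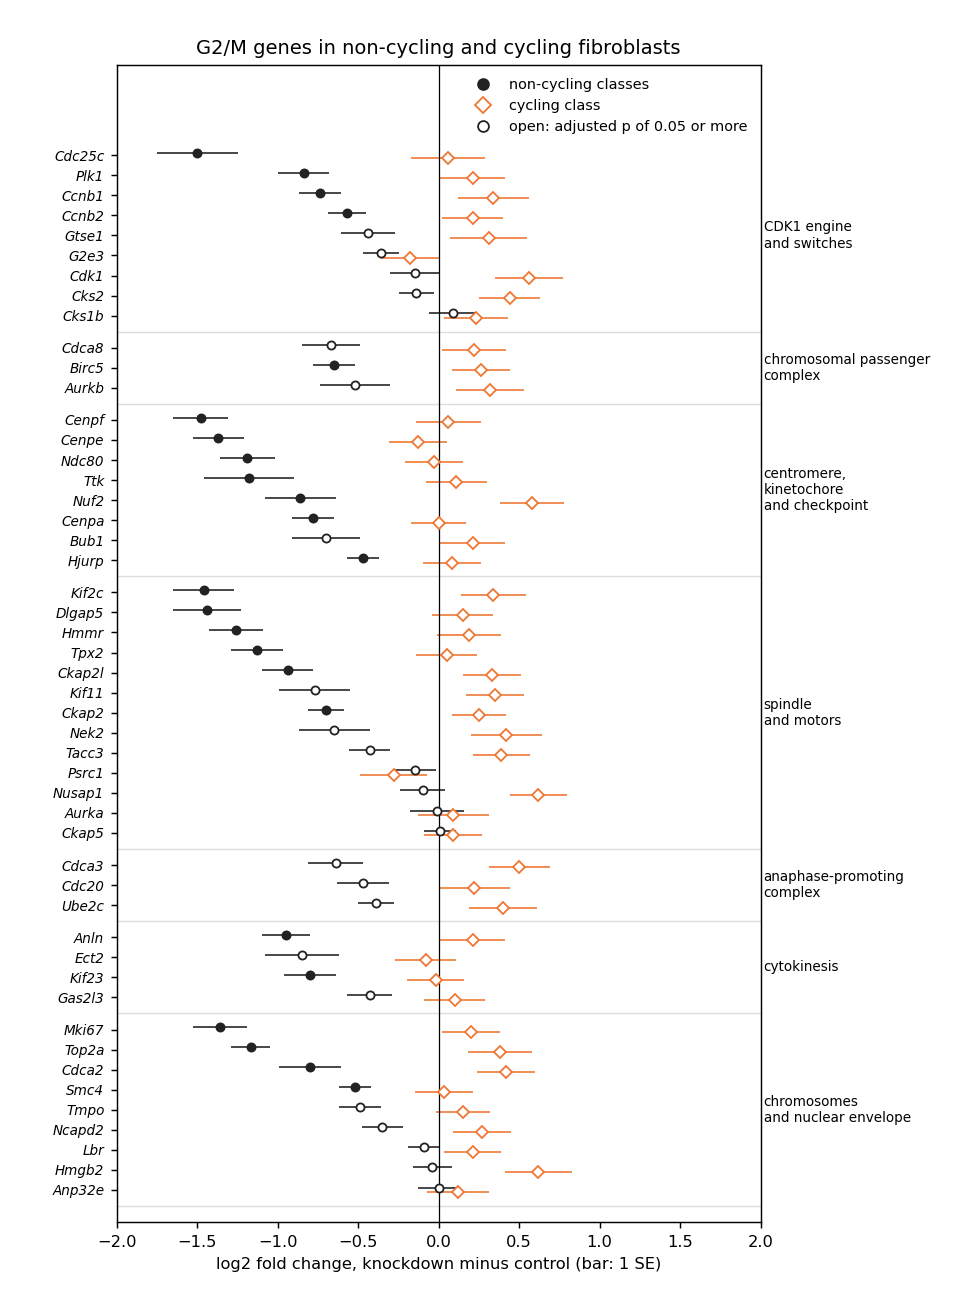
Log2 fold change (knockdown minus control, bar 1 SE) of the 49 members, grouped by role, in non-cycling fibroblast classes (black circles, filled where the adjusted p is under 0.05) and in the cycling fibroblast class (orange diamonds). The 24 filled points lie at log2 values from -1.50 to -0.47, and no diamond is filled.

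The difference between these 2 effects was tested as an interaction within libraries. For 39 of 49 members the effect in the cycling class lay above that in the other fibroblasts, and for 0 it lay below, beside 1.60% of 16090 genes with a difference in this direction. The median difference was 0.86 on the log2 scale. Of the 39 calls 18 held under all 13 alternatives, and 26 members passed without knockdown library 2. Kif2c had the largest (1.82, SE 0.21), followed by Dlgap5 (1.62), Mki67 (1.59, adjusted p = 8.16e-12, edgeR), Top2a (1.57), Cdc25c (1.57) and Cenpf (1.55). Cdk1 (0.73), Hmgb2 (0.68), Nusap1 (0.74) and Cks2 (0.61), which did not pass in either class alone, passed this test. Nusap1 and Cks2 did not pass it with DESeq2, without control library 1 or without knockdown library 2. The 10 members that did not pass included Aurka (0.12), Ckap5 (0.11), Anp32e (0.15), Cks1b (0.17) and Psrc1 (-0.09). The classes were split with these genes among those clustered, so a cell's member level helped to decide on which side of the comparison it was counted.

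Summed over all fibroblasts, cycling or not, 34 of 49 members fell, beside 6.22% of 17481 genes, with a median log2 of -0.69. Of these, 23 had also fallen in the non-cycling classes, which are part of the same sums. All 4 cytokinesis genes, all 3 passenger genes and 7 of 8 kinetochore genes fell. Ect2 went from 18.5 and 17.3 CPM to 8.12 and 9.0 (log2 -1.06, SE 0.12, adjusted p = 0.00284, edgeR), and Kif11 from 18.5 and 16.7 to 9.80 and 10.7 CPM (log2 -0.78, SE 0.12). Neither had passed in the non-cycling classes. Cdk1 (22.1 and 31.0 against 18.6 and 24 CPM), Cks1b, Hmgb2 and Anp32e overlapped between groups. Knockdown library 1 weighs on this count, since 19 members fell without it.

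The share of cells in the cycling class differed along with these sums. Cycling cells were 9.14% and 8.95% of control fibroblasts and 2.86% and 3.92% of knockdown fibroblasts, and they held 44.8% and 47.6% against 30.1% and 39.0% of the members' UMIs. These are sizes of clusters built with the members, given as a description. In thinned cells, 9.80% and 10.3% of control and 3.09% and 4.45% of knockdown fibroblasts held at least 5 member UMIs (exact two-sided permutation p = 0.333, the smallest possible). Without thinning these were 23.5% and 25.1% against 17.1% and 24.9%. Fewer cells with these transcripts and less RNA per cell cannot be told apart in the summed counts. On plain CPM the median member log2 in all fibroblasts was -0.73. It was -0.13 when the cycling class was given the same share of UMIs in the knockdown libraries as its mean in the controls. That share belongs to a class clustered with the members, so this value does not separate fewer cells from less RNA per cell. The ratio of member to S phase UMIs inside the cycling class was 2.09 and 2.29 in control and 1.98 and 2.11 in knockdown libraries.

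The third comparison turned to the epithelial cells, which are wildtype in both groups and differed in the fibroblasts they grew with. In the non-cycling epithelial classes 0 of 49 members passed by edgeR, DESeq2 or limma voom, beside 0.997% of 13642 genes by edgeR, with 3 at an unadjusted p under 0.05 (1316 of all genes) and a median log2 of 0.02. Cenpf read 8.09 and 7.52 CPM in control and 8.88 and 6.99 in knockdown libraries, Ccnb1 6.6 and 5.15 against 7.66 and 6.35, and Hjurp 44.7 and 47.2 against 46.3 and 46.9. In these 3 the groups overlapped. Top2a (17.9 and 14.1 against 11.6 and 10.8 CPM, log2 -0.52) and Tpx2 (9.79 and 10.0 against 6.27 and 7.37 CPM, log2 -0.55) had both knockdown libraries below the controls and did not pass, at adjusted p-values of 0.427 and 0.447. Some epithelial counts were low: Ndc80 had 12 counts and Ttk 9 in control library 2, so small differences in them were not detectable at this depth. With the mixed clusters 19 and 23 included, 3 members fell.

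In cycling AT2 cells 0 of 49 members passed by the same 3 tools, beside 1.34% of 10102 genes by edgeR, with 3 at an unadjusted p under 0.05 (840 of all genes) and a median log2 of 0.13. Nuf2 read 44.1 and 42.0 CPM in control and 62.4 and 68.0 in knockdown libraries (log2 0.59, adjusted p = 0.279, edgeR), and Cdc20 125 and 167 against 176 and 225 (log2 0.45, adjusted p = 0.487). Both had knockdown libraries above the controls. Mki67 (192 and 249 against 189 and 229 CPM) and Top2a (321 and 358 against 314 and 382 CPM) overlapped. In simulated counts for this comparison edgeR recovered 91% of genes changed by 1 on the log2 scale. Without control library 2, 1 member rose.

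Over all epithelial cells 48 of 49 log2 values were above 0, with a median of 0.39 beside 0.02 over all genes, and 1 member rose, beside 0.681% of 13952 genes. This was Nuf2, from 7.36 and 7.62 CPM to 17.2 and 12.5 (log2 1.00, SE 0.22, adjusted p = 0.0383, edgeR). At an unadjusted p under 0.05 there were 21 members, beside 1586 of the 13952 genes, among them Ccnb1 (16.3 and 18.3 against 29.8 and 25.9 CPM, adjusted p = 0.066), Cenpa and Ube2c. Cycling AT2 cells made up 10.7% and 11.7% of control and 18.2% and 12.9% of knockdown epithelial cells, with knockdown library 1 the highest. Nuf2 did not pass with DESeq2 (0 members) or limma voom (0 members), nor without control library 1 or knockdown library 1. Without control library 2, 4 members rose, and without knockdown library 2, 7.

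The fibroblast effect was set against the epithelial effect as an interaction within libraries. In non-cycling cells the knockdown log2 value of 7 members was lower in fibroblasts than in epithelium, beside 1.13% of 16913 genes. These were Hmmr (log2 difference -1.62, SE 0.27), Cenpf (-1.52, SE 0.24), Mki67 (-1.16), Cenpa (-0.98), Anln (-0.85), Tmpo (-0.73, not passed in fibroblasts alone) and Smc4 (-0.55). Their adjusted p-values ran from 0.00727 for Cenpf to 0.041 for Cenpa (edgeR). Hmmr shows the contrast: its level in epithelium was 3.83 and 4.87 CPM in control and 5.54 and 5.34 in knockdown libraries, while in fibroblasts it fell. The median difference was -0.68 over the 49 members. This count was 0 with DESeq2, 0 without control library 2, 2 without control library 1 and 13 without knockdown library 2. Hence 0 of the 7 calls held under every alternative. In cycling cells 0 of 49 members passed the same test by edgeR, DESeq2 or limma voom (6 at an unadjusted p under 0.05 by edgeR, beside 1132 of 11869 genes; 0.902% of 11869 genes passed).

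Cycling fibroblasts and cycling AT2 cells also differed from one another in member levels, whatever the group. In all 4 libraries 26 members were lower in cycling fibroblasts and 6 were higher, and the median log2 ratio in the controls was -0.29. The share of all genes with these patterns was not computed, so the counts are not read as particular to the members. Ect2 was at a log2 ratio of -1.51, and Cdc20 and Aurka at -1.03 each. Among the 6 that were higher were Ckap2 at 0.78, Hjurp at 0.44, Ckap2l at 0.43 and Cenpe at 0.42. The cells compared share libraries, and both classes were formed with these genes, so no test is given.

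Other genes of the same program, which are not members, were counted in the same way, beside the 5.99% of all genes that fell and the 4.23% that rose in non-cycling fibroblasts. Of 47 further mitotic genes 19 fell and 1 rose there. The lowest were Knl1, the kinetochore scaffold (log2 -1.39), the chromokinesin Kif4 (-1.35), the spindle pole protein Aspm (-1.30), Pimreg (-1.17) and citron kinase Cit (-1.15). The one that rose was Pttg1 (securin, the inhibitor of separase), at 12.7 and 16 CPM in control and 20.2 and 23.4 in knockdown libraries (log2 0.60, adjusted p = 0.0416, edgeR). Of 11 regulators of the DREAM, MuvB and FOXM1 group 1 fell, the MuvB subunit Lin54 (26.3 and 23.8 against 18.5 and 16.9 CPM, log2 -0.51, adjusted p = 0.0346), and Foxm1 read 3.68 and 3.68 against 3.53 and 3.13 CPM (adjusted p = 0.599). Of 17 subunits and regulators of the anaphase-promoting complex 0 passed by edgeR, with 2 at an unadjusted p under 0.05. Of 43 S phase genes 9 fell. In the cycling fibroblast class 1 of the 47 mitotic genes rose (the mitotic kinase Pbk, log2 0.89) and 0 fell. Of the 43 S phase genes 3 rose there and 0 fell, and 2.31% of all genes passed in either direction. The effect in cycling fibroblasts stood above the non-cycling one for 29 of the 47 mitotic and 24 of the 43 S phase genes. Of all genes 1.60% did so. In non-cycling epithelium 0 of the 46 mitotic genes that could be tested passed by edgeR (2 at an unadjusted p under 0.05). In cycling AT2 cells 0 of the 47 passed (3 at an unadjusted p under 0.05).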

How the data were processed

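Members, role lists and comparisons were chosen with earlier results of these data known. The authors deposited UMI counts per gene and cell (whole numbers, per the file headers), and their sums equal the UMIs and genes deposited for each of the 45936 cells. An aligner and counter were not given in the sources used here. Per the submitters' processing notes, GRCm38 (mm10) was the build. The deposited mitochondrial percent per cell (at most 35.0%) and the deposited doublet enrichment ratio only served to describe cells, and 51 other columns of values per cell went unused. No doublet caller was run.

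Raw counts were summed per library over the authors' deposited classes. Fibroblast sums took the fibroblast, smooth muscle, EMT-like and unknown mesenchymal classes. Epithelial sums took the AT2 and transitional classes without clusters 19 and 23, left out as mixed: their fibroblast markers summed to 5319 and 4740 CPM, against 792 CPM in cluster 9 of the same class. Sums were tested with edgeR 4.0.16 (R 4.3.3, TMM, default filter on low counts, quasi-likelihood) over all genes, with Benjamini-Hochberg adjustment and a threshold of 0.05, and interactions had the library as a block. DESeq2 1.42.0, limma 3.58.1 (voom), other scalings, no filter, a correction for gene length, other class sets and leaving out each library were alternatives. The edgeR test was tested on simulated data. For shares of cells, each cell with at least 2000 UMIs was thinned to 2000, and intervals cover counting error only. Every member could be named, with values per library for a list set by role, for called members (up to 10 per direction) and for up to 5 other mitotic genes per direction. Gene spans came from GENCODE for GRCm38, and promoters from RefSeq (GRCm38.p6).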

Additional observations from a re-analysis of the deposited data

Results flagged for a closer look

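In 7 members the knockdown effect differed between non-cycling fibroblasts and non-cycling epithelium, tested as an interaction (edgeR). The log2 difference was -0.98 for Cenpa, -1.52 for Cenpf, -1.62 for Hmmr, -0.85 for Anln, -0.55 for Smc4, -1.16 for Mki67 and -0.73 for Tmpo. Of these calls 0 held under all 15 alternatives. Cenpf held under 13 of the 15, Hmmr and Mki67 under 10, Anln under 7, Tmpo under 6, and Cenpa and Smc4 under 4.

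In 39 members the effect in cycling fibroblasts stood above that in non-cycling fibroblasts by the same kind of test, beside 1.60% of 16090 genes. The classes were split with the members among the genes clustered, so a cell's member level helped to decide its side. The calls are thus not independent of how the cells were sorted. Of the 39 calls 18 held under all 13 alternatives. Bub1 and Nek2 held under 4 of the 13, Cdc20 and Ect2 under 7, Nusap1, Kif23 and Ncapd2 under 8, and Cdc25c and Cks2 under 9. For the CDK1 engine the log2 differences were 0.73 (Cdk1), 1.12 (Ccnb1), 0.81 (Ccnb2), 0.61 (Cks2), 1.57 (Cdc25c) and 1.09 (Plk1). The passenger genes Birc5 and Cdca8 had 0.94 and 0.91. For centromere and kinetochore genes they were 0.80 (Cenpa), 0.58 (Hjurp), 1.27 (Cenpe), 1.55 (Cenpf), 1.20 (Ndc80), 1.46 (Nuf2), 0.93 (Bub1) and 1.33 (Ttk). For spindle genes they were 1.20 (Tpx2), 1.14 (Kif11), 1.82 (Kif2c), 1.48 (Hmmr), 0.74 (Nusap1), 0.85 (Tacc3), 0.98 (Ckap2), 1.30 (Ckap2l), 1.62 (Dlgap5) and 1.10 (Nek2). Members tied to the anaphase-promoting complex had 0.72 (Cdc20), 0.82 (Ube2c) and 1.17 (Cdca3), and those of cytokinesis 1.19 (Anln), 0.80 (Ect2) and 0.80 (Kif23). For chromosomes and the nuclear envelope they were 1.57 (Top2a), 0.58 (Smc4), 0.65 (Ncapd2), 1.59 (Mki67), 0.68 (Hmgb2), 0.67 (Tmpo) and 1.25 (Cdca2).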

How the results depend on the processing

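No member changed sign while called under any alternative. In non-cycling fibroblasts 13 of the 24 calls held under all 13 alternatives (Ccnb1, Cenpa, Cenpe, Cenpf, Ndc80, Tpx2, Kif2c, Hmmr, Ckap2, Dlgap5, Anln, Top2a and Mki67). Leaving out each library in turn gave 15 to 31 calls there, with 15 without knockdown library 2, and 15 without cluster 10. It gave 0 to 5 in cycling fibroblasts, 0 to 1 in cycling AT2 cells, 19 to 38 in all fibroblasts, 0 to 7 in all epithelial cells, 0 to 13 for the non-cycling fibroblast effect minus the epithelial one, and 26 to 42 for the cycling minus the non-cycling fibroblast effect. Including the mixed clusters 19 and 23 gave 3 members that fell in non-cycling epithelium. In all epithelial cells, where 1 member rose, DESeq2, limma voom, the length correction and leaving out clusters 14 and 32 gave 0 each, no filter gave 7 and the mixed clusters 3. The knockdown log2 value of 7 members was lower in non-cycling fibroblasts than in epithelium. For this count DESeq2 gave 0, RLE scaling 4, no filter 17, the length correction 4 and fibroblast names only 13. The mixed clusters gave 1, leaving out clusters 14 and 32 gave 3, and leaving out cluster 10 gave 1. The cause was not tested. The simulated sums recovered 65% to 91% of log2 changes of 1, set only in genes with higher counts, so smaller changes can be missed. The test in non-cycling epithelium was not simulated, and the members' SEs there reached 0.56.

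The replicate numbers do not pair the libraries by any label, and the deviations of same-numbered libraries correlated at 0.0828 to 0.151 over genes. With the number as a replicate block 36 members fell in non-cycling fibroblasts. Calls over all 17241 genes grew there too, to 2710 that fell and 2851 that rose, from 1032 and 729 without it. The larger member count is thus not read as a stronger result. In all fibroblasts 42 members fell, and this and the next counts are given without the share over all genes. With this block 8 rose in cycling fibroblasts, 2 in cycling AT2 cells and 3 in all epithelial cells. For 2 members the effect was then lower in non-cycling fibroblasts than in epithelium. For 20 the effect in cycling fibroblasts stood above the non-cycling one, with Hmgb2 among those lost (adjusted p = 0.0995, edgeR).

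The difference in the share of fibroblasts with at least 5 member UMIs (-6.26 points) was -10.3 with at least 3 UMIs, -3.30 with at least 8, -4.38 after thinning to 1500 UMIs and -3.30 with no thinning. In non-cycling fibroblasts (-1.81 points) it was -5.77, -0.549 and -0.957 under the first 3 of these, and it turned to 1.33 with no thinning, where knockdown cells are deeper. In all epithelial cells (3.91) and non-cycling epithelium (0.607) it was 15.4 and 14.3 with no thinning.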

Other observations

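Cluster 23, deposited in the AT2 class and left out of the epithelial sums as mixed, held the highest member level of any cluster not named cycling: 1575 and 1653 CPM in control and 1393 and 2317 in knockdown libraries, on 233, 221, 251 and 36 cells. A second annotation by the authors names it a cycling epithelial cluster. Cluster 32 of the same class held 1177 and 1032 against 361 and 634 CPM, on 82, 25, 21 and 42 cells. The mesothelial cells (56, 45, 27 and 15), in neither compartment, held 1074 and 849 against 604 and 411.

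Within the remaining AT2 cells of cluster 9 the summed member level was 772 and 813 CPM in control and 796 and 1047 in knockdown libraries, with knockdown library 2 the highest and overlapping groups. Transitional epithelial cells stood at 690 and 681 against 660 and 665.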
